A study of Homo sapiens with 6 samples.

Results

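The genes described here are 47 genes of the interferon response and of antigen presentation by MHC class I molecules, taken by name from a written list out of the 16279 genes in the deposited tables. All 47 were found in the tables and all 47 passed the filter on low counts, the lowest mean count being 284 per library, in IFI27. They were read in the RNA-seq libraries of 12Z cells, an immortalised human epithelial cell line derived from endometriosis tissue. Cells of the Control group were left untreated, and cells of the rhChem157S group received recombinant human chemerin ending at serine 157, the active form of this secreted protein, at 10 ng/mL for 48 h. Each group had 3 libraries, which the labels call biological replicates of this 1 cell line, and how long the Control cells were kept is not given in the sources used here.

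Interferons are secreted by cells that detect foreign nucleic acid, and they bind receptors that signal through Janus kinases and STAT transcription factors. A complex that holds STAT2 and IRF9 binds a promoter element called the interferon-stimulated response element (ISRE), and a second element of interferon-induced promoters is the gamma-activated site (GAS). The induced genes encode proteins that block virus entry, translation, replication or release, and also the machinery that cuts proteins into peptides and displays them on class I molecules. In the endometrium, genes of this kind are known to change over the menstrual cycle and at implantation.

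The promoters are shown to let a reader see the element that joins genes which differed in direction in these libraries. RefSeq promoters on GRCh38.p14, from 250 bases before to 50 bases after a gene's start, matched 40 of the 47 genes. The entries of IRF7, IFIT2, IFITM2, OAS2, TRIM22, USP18 and HLA-E were not matched. The ISRE core was searched on both strands as a pair of GAAA copies with 2 bases between them, and 26 of the 40 promoters (65%) held it, against 1255 of 35116 RefSeq promoters of the same length (3.57%). The GAS, TTCNNNGAA on either strand, was in 8 of the 40 (20%), against 7.66% of all promoters. The genes were listed for their interferon response, so high shares are built into the list and are not a result of these libraries. Below are the matches nearest upstream of the RefSeq start in 9 genes whose values follow. The ISRE core is in capitals with 10 bases on each side, written 5′ to 3′ along the gene's own strand. The windows of IFI27, IFITM1, PARP14, TAP1 and ISG15 lie inside the span that GENCODE 29 gives the gene. In BST2, IFITM1, PARP14 and TAP1 all 30 bases lie in GENCODE 29 exons, of the gene itself or of another. TTTC marks a core that lies in the opposite orientation.
BST2: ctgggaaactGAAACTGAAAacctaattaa
IFI27: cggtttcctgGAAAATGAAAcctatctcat
IFITM1: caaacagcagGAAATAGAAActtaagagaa
PARP14: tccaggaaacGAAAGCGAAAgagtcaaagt
TAP1: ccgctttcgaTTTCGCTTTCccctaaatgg
B2M: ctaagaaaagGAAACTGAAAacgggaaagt
IFIT3: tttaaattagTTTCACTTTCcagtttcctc
SAMD9: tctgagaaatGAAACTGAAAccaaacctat
ISG15: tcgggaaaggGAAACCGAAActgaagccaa

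On GRCh38.p14 these lie at chr19:17405735-17405764 (minus strand) for BST2, chr14:94110631-94110660 (plus) for IFI27, chr11:313990-314019 (plus) for IFITM1, chr3:122680800-122680829 (plus) for PARP14 and chr6:32853813-32853842 (minus) for TAP1. The others lie at chr15:44711369-44711398 (plus) for B2M, chr10:89327865-89327894 (plus) for IFIT3, chr7:93118096-93118125 (minus) for SAMD9 and chr1:1013380-1013409 (plus) for ISG15. BST2, which was lower with rhChem157S, SAMD9, which was higher, and B2M, whose groups overlapped, held the same 10 bases. Among the 26 genes with the core, 20 had a log2 fold change under 0 and the median was -0.43, and among the 14 promoters without it these were 13 and -0.35. The 47 genes lie on 17 chromosomes, with 9 on chromosome 6, 6 on chromosome 11 and 4 each on chromosomes 1, 10 and 12. In GENCODE 29 on GRCh38, BST2 spans chr19:17402939-17405648, TRIM22 spans chr11:5689689-5737089, SAMD9 spans chr7:93099513-93118023, TAP1 spans chr6:32845209-32853978 and HLA-E spans chr6:30489467-30494205. A match of letters is a description and not a measured binding site.

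Each library had 35430881 to 38341643 reads assigned to genes. Levels are given as FPKM (fragments scaled to gene length and library total) divided by the library's TMM factor, a scaling factor that aligns most genes between libraries, and fold changes come from edgeR's quasi-likelihood test on the counts. A positive log2 fold change means a higher level with rhChem157S. The 7 epithelial markers summed to 1510 to 1780 in Control cells and 1810 to 2090 with rhChem157S. The keratins carried that sum, KRT8, KRT18 and KRT19 being at 263 to 1020. EPCAM and CDH1 were near 0 in all libraries, at 0.367 to 0.771 and 0.225 to 0.368 in Control cells and at 0.128 to 0.308 and 0.0883 to 0.201 with rhChem157S, with log2 fold changes of -1.46 and -1.14. MUC1 was at 9.76 to 13.8 and 7.1 to 9.85 (log2 fold change -0.57, adjusted p of 0.0363 from DESeq2 and 0.135 from edgeR). The 6 stromal markers summed to 1470 to 1950 and 1210 to 2140, with COL1A1 and COL3A1 at 302 to 1170, and the 4 endothelial markers to 1.53 to 1.94 and 1.10 to 1.41. Of these the stromal PDGFRA was at 1.30 to 1.68 in Control cells and 2.09 to 3.45 with rhChem157S (log2 fold change 0.79, adjusted p of 0.0212 from DESeq2 and 0.124 from edgeR), and the endothelial VWF was at 0.336 to 0.490 and 0.0438 to 0.189 (log2 fold change -1.97, adjusted p of 0.00608 from DESeq2 and 0.117 from edgeR). The leukocyte markers summed to 118 to 164 and 102 to 140. Of the 7 leukocyte markers, CD3E and NKG7 have no row, PTPRC, ITGAM and LYZ were at or below 0.409, and CD68 was at 67.5 to 128. CD14, the monocyte lipopolysaccharide co-receptor, was at 35.3 to 49.7 in Control cells and 7.39 to 21.2 with rhChem157S (log2 fold change -1.49). The part of these markers in the results was not tested, and in bulk RNA fewer cells of a type and less RNA per cell cannot be told apart.

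One library stood apart for these genes. Control replicate 3 had the highest level of all 6 libraries in 39 of the 47 genes (83%), against 16.1% of all 13311 genes tested. Its median excess over the mean of Control replicates 1 and 2 was 0.70 on the log2 scale for the 47 genes and -0.01 for all genes. On the log2 scale and relative to the Control mean, the median of the 47 genes was -0.32, -0.11 and 0.47 in Control replicates 1 to 3 and -0.27, -0.35 and -0.56 in rhChem157S replicates 1 to 3. The median of Control replicate 1 thus lay between those of the treated libraries, and Control replicate 3 lay above all others. The counts below are given with and without that library.

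**Figure D1:**
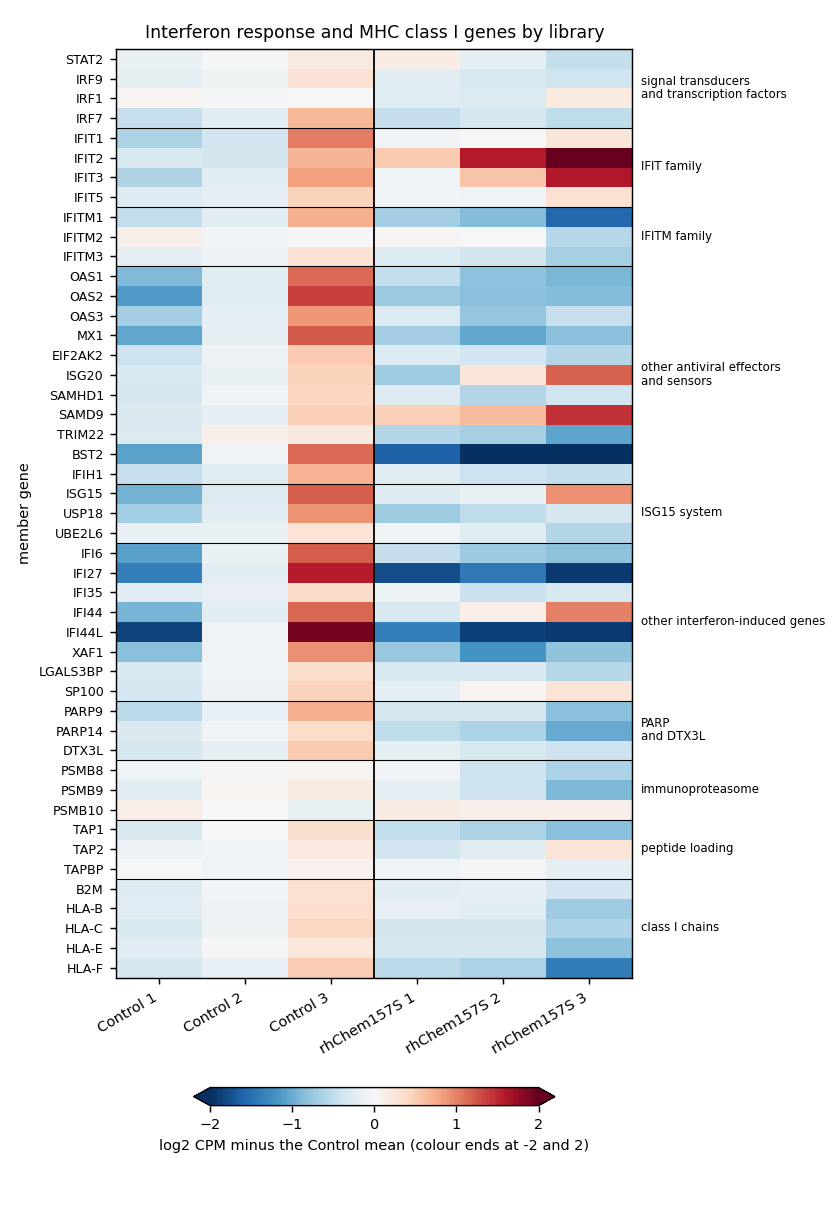
Colour shows the log2 CPM (counts scaled to library total) of each of the 47 genes (rows, grouped by role) in each library (columns) minus the mean of the 3 Control libraries. The column of Control replicate 3 is warm in nearly every row, and the 3 treated columns are mostly cool. IFIT2 and SAMD9 are warm in all 3 treated columns, and IFIT3 in all but rhChem157S replicate 1. Of the other genes, ISG15, ISG20 and IFI44 are the most clearly warm in rhChem157S replicate 3.

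Most of the genes were lower in rhChem157S-treated cells, but few beyond the spread between libraries. The fitted log2 fold change was below 0 in 39 of 47 genes, against 48.3% of all genes, and the median was -0.44, against 0.01 for all genes. At an adjusted p under 0.05 (edgeR, Benjamini-Hochberg over 13311 genes), 0 of the 47 genes were called, against 4 genes or 0.0301% of all. Without adjustment 16 were lower at p under 0.05, against 11.4% of all genes, and 2 were higher, against 11.4%. DESeq2, the tool the study used, called 9 lower at an adjusted p under 0.05, against 6% of the 13309 genes to which it gave one, and 1 higher, against 4.58%. The 9 were BST2, IFI27, IFITM1, XAF1, TRIM22, PARP14, TAP1, HLA-E and HLA-F, and the 1 was SAMD9. The study also required a fold change above 2, which was not applied here. Of these genes only BST2, IFI27, IFITM1 and XAF1 had a DESeq2 log2 fold change beyond 1 in size. In 12 genes every treated library was lower than every Control library, against 16% of all genes, and in 1 gene every treated library was higher, against 16.5%.

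Without Control replicate 3, 36 of the 47 genes were still lower, but the median was -0.15. Of these 6 had an unadjusted p under 0.05 (background 7.99% of 13450 genes), namely BST2, IFI27, IFITM1, TRIM22, PARP14 and TAP1. Another 4 were higher at that threshold (background 7.6%), namely SAMD9, IFIT1, IFIT2 and IFIT3. DESeq2 then called BST2 and TRIM22 lower and SAMD9, IFIT1 and IFIT2 higher, a fit added after the data were seen. Removing Control replicates 1, 2 or 3 turned the DESeq2 count of 10 into 15, 1 and 5, where the same fits called 5.64%, 2.23% and 4.53% of all genes with an adjusted p. Removing rhChem157S replicates 1, 2 or 3 turned it into 11, 2 and 4, beside 20%, 4.86% and 13.3% of all genes.

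**Figure D2:**
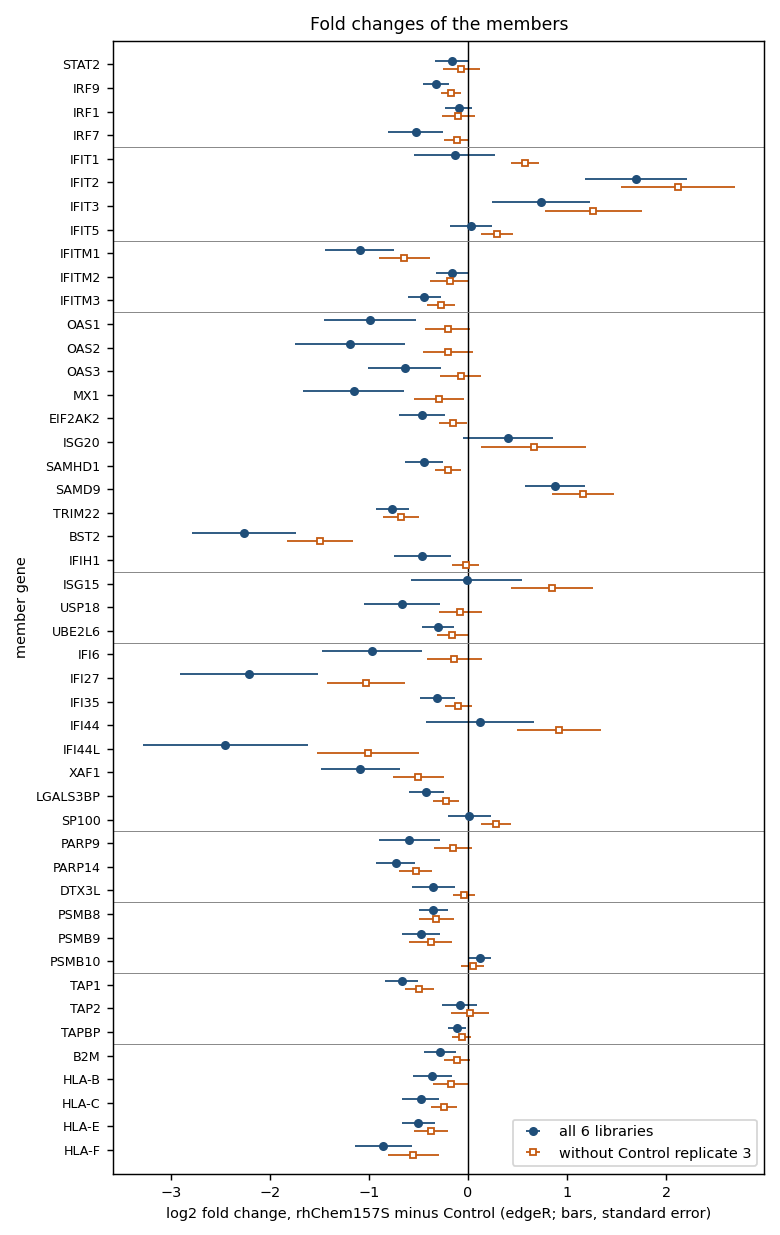
Points show the log2 fold change (rhChem157S minus Control, edgeR) of each of the 47 genes and bars its standard error, with all 6 libraries (filled) and without Control replicate 3 (open). The open points lie nearer to 0 than the filled ones for most genes below 0, and farther from it for IFIT2, IFIT3 and SAMD9.

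The genes of the list that carry the interferon signal to the nucleus or respond to it there are STAT2, IRF9, IRF1 and IRF7. They had log2 fold changes from -0.53 to -0.10. IRF9, the DNA-binding partner of STAT2, was at 44.1, 46.4 and 60.6 in Control replicates 1 to 3 and at 43.0, 40 and 37.7 in rhChem157S replicates 1 to 3. Its groups did not overlap, but Control replicate 1 was close to rhChem157S replicate 1, and the log2 fold change was -0.32 (unadjusted p = 0.0449). Each 100-base stretch of the longest IRF9 transcript also occurs in a second gene of the GENCODE annotation. The counts of IRF9 are uncertain if the annotation used for counting held that gene, which the sources used here do not give. The share of such stretches found in a second gene was 37.7% in IFITM1, 35.2% in TAP2, 31.7% in PSMB10, 15.4% in USP18 and 11.8% in SP100. In IFIT2, IFITM3 and PSMB9 this share was 7.13%, 5.92% and 5.77%, and in the other listed genes at most 0.6%.

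The IFIT proteins bind viral RNA and hold back its translation, and this family was the one whose median was above 0. IFIT2 was at 5.79, 5.52 and 11.4 in Control cells and at 10.3, 21.5 and 41.8 with rhChem157S. Treated replicates 2 and 3 lay above all Control libraries, and treated replicate 1 lay just below Control replicate 3. Its log2 fold change of 1.69 (standard error 0.51, unadjusted p = 0.0123) had an adjusted p of 0.135 from edgeR and 0.0753 from DESeq2. IFIT3, the most abundant of the family, was at 21.1, 27.6 and 56.7 in Control cells and at 30.2, 47.8 and 97.5 with rhChem157S, a log2 fold change of 0.74 (standard error 0.49) with overlapping groups. IFIT1 and IFIT5 had log2 fold changes of -0.13 and 0.03. Without Control replicate 3, every treated library was above both remaining Control libraries in all 4 genes, as was the case for 21.6% of all genes, and the log2 fold changes of IFIT1, IFIT2, IFIT3 and IFIT5 were 0.57, 2.12, 1.27 and 0.29.

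The IFITM proteins sit in cell membranes and stop viruses from fusing with them. IFITM1 was at 296, 357 and 683 in Control cells and at 258, 229 and 140 with rhChem157S. The groups did not overlap, and Control replicate 3 was far above the others. This gave a log2 fold change of -1.09 (standard error 0.35), with an adjusted p of 0.142 from edgeR and 0.0145 from DESeq2, or -0.64 without Control replicate 3. IFITM3, the most abundant of the family, was at 1700, 1790 and 2380 in Control cells and at 1610, 1490 and 1220 with rhChem157S, a log2 fold change of -0.44 (standard error 0.16) with groups that did not overlap. IFITM2 overlapped between the groups (log2 fold change -0.16). In the GENCODE annotation IFITM1 and IFITM2 share 351 exon bases on the same strand. Reads there cannot be assigned to 1 of them if the counting used such gene models, which the sources used here do not give.

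Among 11 other antiviral effectors and sensors, BST2 and TRIM22 stood lower and SAMD9 higher. BST2, also called tetherin, holds budding virus particles at the cell surface. Its level was 27.8, 55.6 and 129 in Control cells and 19.0, 13.2 and 12.1 with rhChem157S. The treated libraries were close to each other and below the lowest Control library, while the Control libraries spread widely. For BST2 the log2 fold change was -2.26 (standard error 0.52), with an adjusted p of 0.0962 from edgeR and 0.0104 from DESeq2, or -1.50 (standard error 0.33) without Control replicate 3.

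TRIM22, a ubiquitin ligase that restricts several viruses, had the smallest p of the 47 genes. Its level was 21.4, 27.9 and 29.4 in Control cells and 17.3, 16.5 and 12.5 with rhChem157S, or 26.2 ± 4.22 against 15.4 ± 2.54 (SD, n = 3 each). In this gene Control replicate 3 did not stand apart from Control replicate 2. For TRIM22 the log2 fold change was -0.77 (standard error 0.17), with an adjusted p of 0.0892 from edgeR and 0.00147 from DESeq2. Leaving out each library in turn gave -0.89 to -0.64, and DESeq2 kept the call except without Control replicate 2. Its exons share 642 bases with the olfactory receptor gene OR56B1 on the same strand.

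SAMD9, which restricts poxviruses and is a growth suppressor, was the 1 gene of the 47 in which every treated library was above every Control library. Its level was 5.71, 6.21 and 9.73 in Control cells and 9.76, 10.8 and 19.3 with rhChem157S. Control replicate 3 and rhChem157S replicate 1 nearly touched. On the log2 scale SAMD9 was higher by 0.88 (standard error 0.30), with an adjusted p of 0.160 from edgeR and 0.0384 from DESeq2. Removing Control replicate 3 gave 1.16 and removing rhChem157S replicate 3 gave 0.51.

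The other 8 effectors and sensors overlapped between the groups. OAS3, which makes the 2′-5′ oligoadenylates that switch on RNase L and was the most abundant of the 11, was at 33.9, 48 and 99.7 in Control cells and at 45.1, 31.8 and 39.7 with rhChem157S. Only Control replicate 3 was clearly above the rest. The log2 fold change of OAS3 was -0.64 (standard error 0.37) with all libraries and -0.07 without Control replicate 3. OAS1, OAS2 and the antiviral GTPase MX1, singled out after their values were seen, had -0.99, -1.19 and -1.15 with all libraries and -0.21, -0.20 and -0.29 without Control replicate 3. The RNA-dependent kinase EIF2AK2, the RNA sensor IFIH1, the nucleotide hydrolase SAMHD1 and the exonuclease ISG20 had log2 fold changes from -0.47 to 0.40, none with an unadjusted p under 0.05.

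**Figure D3:**
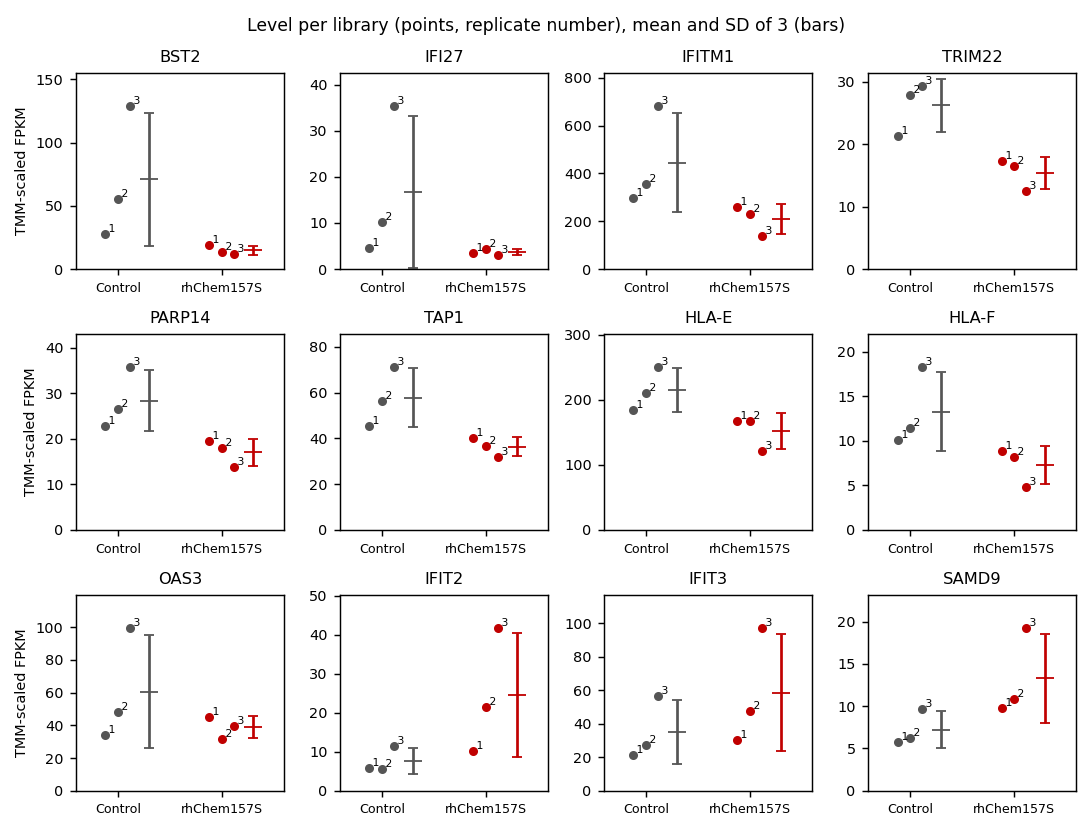
Points show the TMM-scaled FPKM of 12 genes in each library, numbered by replicate, and bars the mean and SD of the 3 libraries of a group, on axes that start at 0. In BST2, IFI27, IFITM1 and OAS3 Control replicate 3 lies far above the other libraries, in TRIM22 it does not, and IFIT2, IFIT3 and SAMD9 are highest in rhChem157S replicate 3.

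ISG15 is a ubiquitin-like protein, UBE2L6 the enzyme that conjugates it and USP18 the protease that removes it. None of the 3 had an unadjusted p under 0.05. ISG15 was at 52.2, 83.2 and 233 in Control cells and at 83.8, 92.1 and 190 with rhChem157S, a log2 fold change of -0.01 (standard error 0.56). Replicate 3 was the highest of each group. Without Control replicate 3 the treated libraries were all above the remaining Control libraries (again beside 21.6% of all genes), with a log2 fold change of 0.85 (unadjusted p = 0.0844). UBE2L6 and USP18 had log2 fold changes of -0.31 and -0.67 with all libraries.

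Of 8 further interferon-induced genes, IFI27 and XAF1 were called lower by DESeq2. IFI27, a small mitochondrial and nuclear membrane protein, was at 4.56, 10.2 and 35.4 in Control cells and at 3.43, 4.33 and 3.07 with rhChem157S. The groups did not overlap, but Control replicate 1 was close to rhChem157S replicate 2. The log2 fold change was -2.21 (standard error 0.69), with an adjusted p of 0.140 from edgeR and 0.00648 from DESeq2, and -1.03 without Control replicate 3. IFI44L had the lowest log2 fold change of the 47 genes with all libraries, -2.45, from 0.702, 2.43 and 9.65 in Control cells and 0.978, 0.692 and 0.667 with rhChem157S, so that Control replicate 1 lay among the treated libraries.

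XAF1, a partner of the apoptosis inhibitor XIAP, was at 4.58, 7.77 and 15.4 in Control cells and at 4.86, 3.57 and 4.66 with rhChem157S. Control replicate 1 again lay within the treated range, and the log2 fold change was -1.09 (adjusted p of 0.0414 from DESeq2 and 0.175 from edgeR). XAF1 shares 2535 of its 6615 exon bases with PRAL on the opposite strand, and whether the counting used strand is not given in the sources used here. LGALS3BP, a secreted glycoprotein and the most abundant of the 8, was at 439, 521 and 693 in Control cells and at 435, 432 and 366 with rhChem157S, a log2 fold change of -0.42. Its groups did not overlap, and Control replicate 1 was close to rhChem157S replicates 1 and 2. IFI6, IFI35, IFI44 and SP100 overlapped between the groups, with log2 fold changes from -0.97 to 0.12.

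PARP9, PARP14 and DTX3L transfer ADP-ribose or ubiquitin and act on interferon signalling and DNA repair. PARP14 was at 22.7, 26.6 and 35.8 in Control cells and at 19.5, 17.9 and 13.8 with rhChem157S. The groups did not overlap, and the log2 fold change was -0.73 (standard error 0.19), with an adjusted p of 0.115 from edgeR and 0.00901 from DESeq2. It was -0.53 without Control replicate 3. PARP9 and DTX3L, which overlap at their starts on opposite strands of chromosome 3 and share 217 exon bases there, had log2 fold changes of -0.59 and -0.35 with overlapping groups, and of -0.15 and -0.04 without Control replicate 3.

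Class I presentation begins with the proteasome, in which the interferon-induced subunits PSMB8, PSMB9 and PSMB10 take the places of PSMB5, PSMB6 and PSMB7. PSMB8 was at 53.6, 57.7 and 59.1 in Control cells and at 54.3, 42.7 and 36.8 with rhChem157S. PSMB9 was at 43.3, 51.9 and 57.6 in Control cells and at 44.8, 37.9 and 27.3 with rhChem157S. In both genes only rhChem157S replicate 1 lay within the Control range, and the log2 fold changes were -0.35 and -0.47 (unadjusted p = 0.0448 and 0.0416). PSMB10 overlapped between the groups (log2 fold change 0.12). PSMB8 shares 618 exon bases with PSMB8-AS1 on the opposite strand.

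The share of the 3 inducible subunits in the FPKM of all 6 subunits does not depend on library scaling. It was 28.4%, 30.5% and 30.8% in Control cells and 27.1%, 23.2% and 17.7% with rhChem157S. The groups did not overlap, and Control replicate 3 did not stand apart. The difference of the means was -7.25 percentage points (p = 0.10 in an exact permutation test, two-sided, a design of 3 against 3 being unable to give less). Leaving out single libraries gave -9.49 to -4.75, and rhChem157S replicate 3 was the library that moved it most. PSMB9 relative to PSMB6 was 0.405, 0.530 and 0.635 in Control cells and 0.378, 0.335 and 0.208 with rhChem157S, while PSMB10 relative to PSMB7 overlapped. The constitutive subunit PSMB6 had a log2 fold change of 0.30 (unadjusted p = 0.0181) and every treated library above every Control library.

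**Figure D4:**
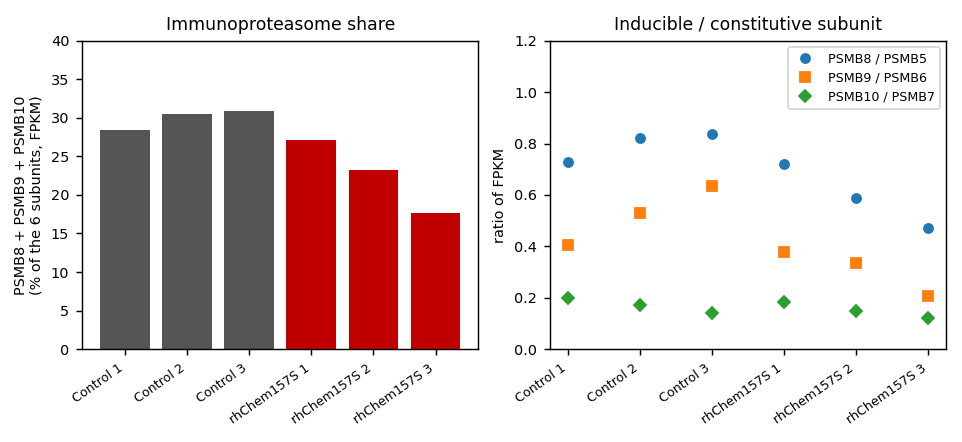
Bars on the left show the share of PSMB8, PSMB9 and PSMB10 in the FPKM of the 6 catalytic subunits per library (percent), and points on the right the ratio of each inducible subunit to the one it replaces. The share is 28.4% to 30.8% in the Control libraries and 17.7% to 27.1% with rhChem157S, and the ratio of PSMB10 to PSMB7 overlaps between the groups.

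TAP1 and TAP2 form the transporter that carries peptides into the endoplasmic reticulum, and TAPBP (tapasin) bridges it to class I molecules. TAP1 was at 45.6, 56.5 and 71.3 in Control cells and at 40.2, 36.8 and 31.9 with rhChem157S, or 57.8 ± 12.9 against 36.3 ± 4.16 (SD, n = 3 each). The groups did not overlap. The log2 fold change was -0.67 (standard error 0.17), with an adjusted p of 0.108 from edgeR and 0.00803 from DESeq2, and -0.49 without Control replicate 3. Its RefSeq start lies 488 bases from that of PSMB9 on chromosome 6, head to head. TAP2 and TAPBP, the latter the most abundant of the 3 at 68.4 to 83.4, overlapped between the groups with log2 fold changes of -0.08 and -0.11.

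The 5 class I chains all had a log2 fold change under 0, and 3 of them did not overlap between the groups. HLA-E, which presents leader peptides to receptors of natural killer cells, was at 184, 210 and 251 in Control cells and at 168, 168 and 121 with rhChem157S, which gave -0.50 on the log2 scale (standard error 0.17, adjusted p of 0.153 from edgeR and 0.0497 from DESeq2). HLA-F, a non-classical chain, was at 10.1, 11.4 and 18.3 in Control cells and at 8.87, 8.20 and 4.86 with rhChem157S, which gave -0.85 on the log2 scale (standard error 0.29, adjusted p of 0.155 from edgeR and 0.0348 from DESeq2). In both, every treated library was below the lowest Control library. Without Control replicate 3 the log2 fold changes were -0.37 and -0.55, and DESeq2 called neither.

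HLA-C, a classical chain, was at 442, 510 and 729 in Control cells and at 425, 424 and 357 with rhChem157S, a log2 fold change of -0.48 (unadjusted p = 0.0381). The groups did not overlap, with Control replicate 1 close to rhChem157S replicates 1 and 2. B2M, the light chain of every class I molecule and the most abundant of the 47 genes, was at 2300, 2640 and 3390 in Control cells and at 2350, 2390 and 2110 with rhChem157S. Its groups overlapped (log2 fold change -0.28, standard error 0.16), and so did those of HLA-B (-0.36). Reads of the HLA chains can align to more than 1 of these similar and highly variable genes, so the division between them is uncertain.

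The genes upstream of the response were measured from lists written with the members. Of 9 interferon genes only IFNE, epithelial interferon epsilon, has a row in the tables, and it was at 0.407 to 0.886 with overlapping groups (log2 fold change -0.57, unadjusted p = 0.196). Of 9 receptor and kinase genes, edgeR called 0 at an adjusted p under 0.05. Without adjustment 1 was lower and 1 higher, each direction holding 11.4% of all genes. IFNLR1, the lambda interferon receptor chain, was at 1.43, 1.40 and 1.86 in Control cells and at 1.05, 0.790 and 0.673 with rhChem157S (log2 fold change -0.90, adjusted p of 0.109 from edgeR and 0.00901 from DESeq2). The kinase JAK1 had a log2 fold change of 0.29 (unadjusted p = 0.0363, adjusted p of 0.141 from DESeq2). The median of the 9 genes was -0.14, against 0.01 for all genes.

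None of 4 inhibitors of the pathway and none of 12 tested genes of nucleic acid sensing had an unadjusted p under 0.05, and DESeq2 called 0 in either list. Their median log2 fold changes were 0.02 and 0.01. SOCS3 and PTPN2 had the smallest p of the inhibitors, with log2 fold changes of 0.22 and 0.06. Of the sensing genes ZC3HAV1, an RNA-binding antiviral protein, had a log2 fold change of 0.71 (unadjusted p = 0.0536) and TBK1 one of 0.13. Of 6 genes of the constitutive proteasome and its activators, PSMB6 above had an unadjusted p under 0.05, PSMB7 had a log2 fold change of 0.31 (unadjusted p = 0.0589) and DESeq2 called 0.

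Among 11 tested partners and regulators of class I, edgeR called 0 and the median was 0.03. DESeq2 called 2 lower and 2 higher, against 6% and 4.58% of all genes. The 2 lower ones were regulators of transcription of the class I genes. RFX5 was at 18.4, 19.1 and 20.3 in Control cells and at 14.1, 13.2 and 12.0 with rhChem157S, which gave -0.55 on the log2 scale (standard error 0.09, adjusted p of 0.0707 from edgeR and 7.87e-05 from DESeq2). NLRC5, the class I transactivator, was at 10.7, 11.5 and 9.53 and at 8.96, 6.87 and 7.52, a log2 fold change of -0.44 (adjusted p of 0.124 from edgeR and 0.0290 from DESeq2). In both genes Control replicate 3 did not stand apart, and without it the log2 fold changes were -0.51 and -0.51.

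The 2 higher ones were folding proteins of the endoplasmic reticulum. PDIA3, a disulphide isomerase of the peptide-loading complex, was at 110, 124 and 147 in Control cells and at 161, 199 and 202 with rhChem157S, a log2 fold change of 0.56 (adjusted p of 0.108 from edgeR and 0.00907 from DESeq2). CANX (calnexin), a chaperone of newly made class I chains, was at 108, 126 and 113 and at 133, 157 and 231, a log2 fold change of 0.58 (adjusted p of 0.159 from edgeR and 0.0494 from DESeq2). In both genes the treated libraries were all above the Control libraries.

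Of 31 tested genes in a list of further interferon-stimulated genes, edgeR called 0. At an unadjusted p under 0.05 it had 3 lower and 2 higher, each direction holding 11.4% of all genes. DESeq2 called 3 lower and 1 higher, against 6% and 4.58% of all genes. The 3 were TRIM5, a capsid-binding restriction factor, the GTPase GBP1 and EPSTI1, with log2 fold changes of -0.64, -0.66 and -0.95. The 1 was the nuclear DNA sensor IFI16, at 36.0, 30 and 39.3 in Control cells and at 46.8, 50.3 and 44.2 with rhChem157S (log2 fold change 0.42, adjusted p of 0.120 from edgeR and 0.0299 from DESeq2). In the 3 lower genes and in IFI16 the groups did not overlap. The median of the list was -0.16 with all libraries and 0.12 without Control replicate 3, which was the highest library in 23 of the 31.

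**Figure D5:**
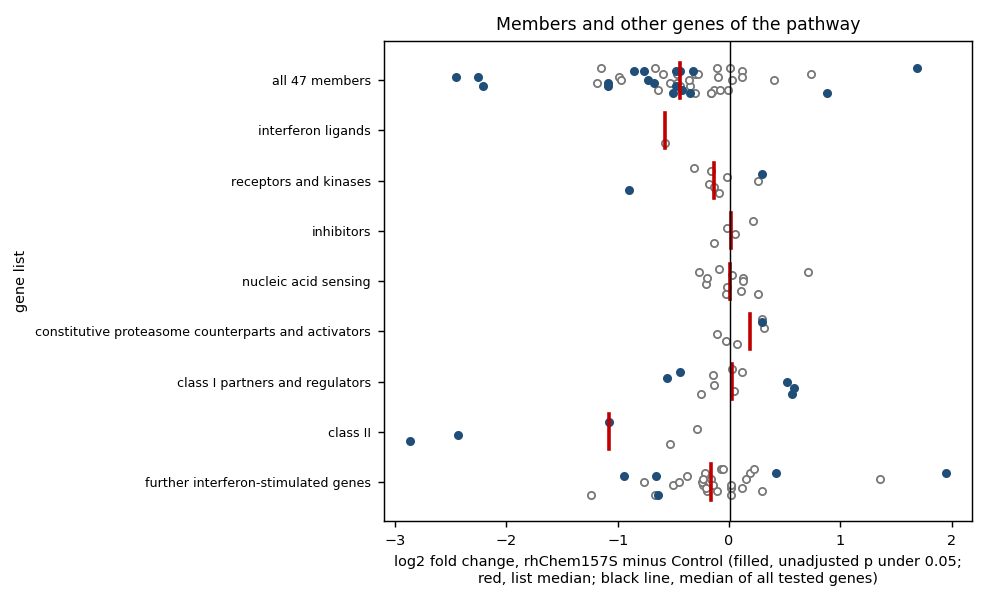
Each point is the log2 fold change (rhChem157S minus Control, edgeR) of 1 gene, filled at an unadjusted p under 0.05, and red bars are list medians. The median of the 47 genes lies at -0.44 and those of the receptors, inhibitors and sensing genes between -0.14 and 0.02, near the black line of all tested genes at 0.01. The class II median lies lower than that of the 47 genes, at -1.08, and IFNE, alone in its list, lies at -0.57. Medians of the further interferon-stimulated genes, the class I partners and the constitutive proteasome list lie at -0.16, 0.03 and 0.18.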

How the data were processed

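RNA of untreated and rhChem157S-treated 12Z cells was sequenced, 3 libraries per group. The submitters' processing notes name fastp, HISAT2, HTSeq and the build GRCh38.p13. The authors deposited raw read counts per gene without normalization, and FPKM values that equalled the count over a fixed gene length and the library total in all 79491 values compared (count of 10 or more, within 0.1%). Strand setting and annotation release are not given in the sources used here.

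The main test was edgeR 4.0.16 (quasi-likelihood, TMM factors, filterByExpr, R 4.3.3) over 13311 genes with Benjamini-Hochberg adjustment, no covariate and no fold threshold. It was tested on simulated data. Also run were limma 3.58.1 on log-transformed FPKM with pseudocounts of 1 and 0.1, DESeq2 1.42.0, other scalings and filters, the replicate number as a block, and each library left out, and DESeq2 with each library left out was added after the data were seen. Gene positions and exon overlaps came from GENCODE 29.

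The genes and lists were chosen with earlier results of these data known. Members were named with values in every library if their unadjusted p was under 0.05, their groups did not overlap or they were the most abundant of their role. Genes of other lists were named if called by edgeR or DESeq2, or if their p was among the 2 smallest of the list. Marker genes and genes singled out in the text are exceptions. A few genes of the lists are not reported here.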

Additional observations from a re-analysis of the deposited data

How the results depend on the processing

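The direction of the 47 genes as a set changed under none of the alternatives run. Their median log2 fold change was -0.56 to -0.40 over the other tools, scalings and filters and -0.56 to -0.15 when single libraries were left out, the latter without Control replicate 3, and 36 to 43 genes were lower. Calls depended on the tool and on single libraries. Over all genes edgeR called 4, against 1407 with DESeq2, 179 with limma on log2(FPKM + 1), 23 with limma on log2(FPKM + 0.1), 17 with no filter on low counts and 1 with the replicate number as a block. With each library left out edgeR called 0 to 844, the highest without rhChem157S replicate 1 and 415 without rhChem157S replicate 3. DESeq2, in fits chosen after seeing the data, called 761, 300 and 585 without Control replicates 1, 2 and 3 and 2704, 658 and 1804 without rhChem157S replicates 1, 2 and 3. Of the 47 genes edgeR called 0 with all libraries and 0 to 3 with one left out. The 3 were IFIT2, PSMB8 and TRIM22, without rhChem157S replicate 1, in the same fit that called 844 of all genes. DESeq2 called 10 with all libraries and 15, 1, 5, 11, 2 and 4 with the same libraries left out in that order. Groups did not overlap in 13 of the 47 genes with all libraries, beside 4331 of all 13311 genes. They did not overlap in 30, 14 and 18 without Control replicates 1, 2 and 3 (63.8%, 29.8% and 38.3% of the 47, against 41.5%, 36.9% and 42.9% of all genes). Without rhChem157S replicates 1, 2 and 3 these were 21, 15 and 15 (44.7%, 31.9% and 31.9%, against 50.2%, 37.9% and 44.1%). Same-numbered libraries deviated together with correlations of 0.24, 0.00 and 0.25, and libraries of unlike number with -0.31 to 0.11. The main test did not take the numbers as pairs. With the block edgeR called 0 of the 47 genes, and 14 had an unadjusted p under 0.05, against 18 in the main test. SAMD9 and IFIT2 had smaller unadjusted p with the block, 6.28e-05 and 0.000362 (edgeR, adjusted p of 0.058 in each). Scaling by library size alone moved the median of all genes to -0.12. PTPN2 was -0.063 with limma on log2(FPKM + 1), -0.0699 with limma on log2(FPKM + 0.1) and -0.0732 with library size alone, and TBK1 was -0.0044, -0.0048 and -0.0047, all turned from above 0. The cause of these changes was not tested. Mean counts were 284 or more per library in the 47 genes and as low as 11.8 among the tested class II genes (HLA-DMB), whose values are less precise.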

Other observations

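MHC class II genes, which serve presentation of ingested antigen, were low in these cells. With rhChem157S 3 of the 5 tested were lower at an unadjusted p under 0.05, against 11.4% of all genes. Of 7 listed genes, HLA-DRA and HLA-DRB1 were too low to test, at 0 to 0.229 TMM-scaled FPKM. HLA-DMA, a chain of the molecule that loads peptides onto class II, was at 6.03, 7.44 and 6.81 in Control cells and at 1.03, 1.84 and 0.872 with rhChem157S. The libraries of each group lay close together and the groups were far apart. The log2 fold change was -2.44 (standard error 0.32), with an adjusted p of 0.0692 from edgeR and 1.18e-10 from DESeq2 (Benjamini-Hochberg), and -2.43 without Control replicate 3. CD74, the invariant chain, was at 3.13, 4.58 and 8.71 in Control cells and at 2.69, 2.93 and 2.15 with rhChem157S, a log2 fold change of -1.08 (adjusted p of 0.153 from edgeR and 0.0318 from DESeq2) and of -0.57 without Control replicate 3. HLA-DMB, the partner chain, was at 0.222 to 0.688 in Control cells and 0 to 0.116 with rhChem157S. EdgeR called 0 of the 5 tested genes at an adjusted p under 0.05, and DESeq2 called 2 lower, against 6% of all genes. CIITA, the class II transactivator, was at 0.0626 to 0.286 and 0.111 to 0.129 with overlapping groups. HLA-DPA1, a class II chain, also overlapped, at 0.358 to 0.944 in Control cells and 0.522 to 0.664 with rhChem157S (log2 fold change -0.28). The monocyte marker CD14 was also lower with rhChem157S in every library (log2 fold change -1.49, adjusted p of 0.000511 from DESeq2 and 0.10 from edgeR), and its part in these values was not tested.

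OASL and RSAD2, antiviral genes outside the 47 that were chosen after their values were seen, were at 2.70, 3.28 and 11.5 and at 0.293, 0.680 and 1.65 in Control replicates 1 to 3. In rhChem157S replicates 1 to 3 they were at 5.79, 18.1 and 43.5 and at 0.848, 2.18 and 3.71. Replicate 3 was the highest of each group in both genes, and the groups overlapped.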
